A study of Mus musculus with 4 samples.

Results

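The 42 genes described here encode collagens and other matrix proteins, together with enzymes and regulators of the matrix, and were taken by symbol from the 34097 genes counted in each library; all 42 were found, each under a single identifier. They were measured by droplet single-cell RNA sequencing in transplanted mouse hearts on day 5 after grafting. The series set allogeneic grafts, 3 libraries numbered 1 to 3 (allografts 1, 2 and 3), beside an isogeneic graft, 1 library numbered 2 (the isograft), and the design text calls the isogeneic arm syngeneic, that is, genetically matched between donor and recipient. The hearts of both arms had been transplanted and digested with enzymes, so neither arm is an untouched heart, and the labels name no strain, age, drug or cell sort. The labels do not say whether libraries of a group came from separate animals, so p-values here reflect the spread from library to library, whatever its source.

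Collagens are built from 3 intertwined chains, secreted as precursors, trimmed and then cross-linked. The fibril-forming types give heart muscle its tensile strength, and type IV forms the sheet under vessel walls and around muscle cells. Fibroblasts make most of the fibrillar matrix of the heart, endothelial cells, pericytes and smooth muscle make basement membrane and elastic fibres, and matricellular proteins such as periostin are made in quantity after injury. Leukocytes make little of the fibrillar collagens, so collagen UMIs (unique molecular identifiers, each counting 1 captured transcript) in leukocytes serve as a measure of free RNA in the droplets.

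Fibroblasts, endothelial cells, pericytes and smooth muscle cells were gated by marker genes that hold none of the 42 members. The fibroblast gate, which rests on Pdgfra, Tcf21, Pcolce and 10 other genes, kept 34, 70 and 1023 cells in allografts 1, 2 and 3 and 4439 in the isograft. These were 0.682%, 0.852% and 16.2% of allograft cells and 39.0% of isograft cells. Endothelial cells numbered 201, 584 and 618 in the allografts and 1025 in the isograft. There were 5, 8 and 7 pericytes in the allografts and 79 in the isograft. Smooth muscle cells numbered 5, 27 and 27 in the allografts and 145 in the isograft. Leukocytes, the background class, numbered 4088, 6373 and 2934 in the allografts and 3578 in the isograft. Allograft 3 thus stood apart from the other allografts in its fibroblast share, and values below are given per library, with the calls that change without it. Libraries held between 51054446 and 100038951 UMIs, and between 0.619% and 0.977% of their barcodes also occurred in another library. The fibroblast markers summed to 1987, 2269 and 2746 CPM (UMIs of a gene per 1000000 UMIs of the class) in allograft fibroblasts and 3661 CPM in isograft fibroblasts, with none of the 13 at 0. Leukocyte markers summed to 398, 426 and 241 CPM in allograft fibroblasts and 173 CPM in isograft fibroblasts, against 10084 to 10894 CPM in leukocytes. The part of this difference in marker levels in the results below was not tested.

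Promoter windows from RefSeq (GRCm38.p6, 250 bases before to 50 after a start site) matched 24 of the 42 members with 29 windows. No window was matched for Loxl1, Eln, Mfap4, Cthrc1, Col1a1, Mfap5, Col12a1, Dcn, Ccn2, Mgp, Col14a1, Col5a2, Lox, Lum, Loxl2, Thbs1, Fn1 and Mmp2. Col18a1, which encodes the basement membrane collagen that carries endostatin, is shown because its allograft level differed in opposite directions in fibroblasts and endothelial cells. It has 2 start sites, at chr10:77166481-77166780 and chr10:77113656-77113955, both on the minus strand. Reads of a 3′ assay lie near the end of the transcript and do not tell the 2 start sites apart. Capitals mark matches on either strand to GGAATG (TEAD factors), CAGACA (SMAD factors), CCAAT (NF-Y), TATAAA (the TATA box), TGANTCA (AP-1) and the core of the interferon-stimulated response element.
Col18a1 upstream window: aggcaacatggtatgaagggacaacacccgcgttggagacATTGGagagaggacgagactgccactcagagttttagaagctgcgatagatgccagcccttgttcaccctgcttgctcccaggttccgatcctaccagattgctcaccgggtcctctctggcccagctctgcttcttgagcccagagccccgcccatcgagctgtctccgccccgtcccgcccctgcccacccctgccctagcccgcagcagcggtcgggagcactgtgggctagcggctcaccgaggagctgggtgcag
Col18a1 downstream window: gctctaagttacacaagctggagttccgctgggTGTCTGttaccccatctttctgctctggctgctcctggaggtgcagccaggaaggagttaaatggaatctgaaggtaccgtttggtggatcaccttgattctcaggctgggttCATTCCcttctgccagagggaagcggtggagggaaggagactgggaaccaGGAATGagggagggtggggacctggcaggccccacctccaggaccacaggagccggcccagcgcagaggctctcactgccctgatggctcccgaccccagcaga
The upstream window held only a reversed CCAAT, and the downstream one held a GGAATG on each strand and a reversed CAGACA; no 2 matches overlapped. Of all 32851 promoter windows of this length, GGAATG stood in 14.7%, CAGACA in 21.0%, CCAAT in 37.4%, TATAAA in 13.6%, TGANTCA in 7.81% and the interferon element in 3.44%. Among the 29 member windows, GGAATG stood in 4 (of Col18a1, Col3a1, Col6a2 and Timp1), CAGACA in 11, CCAAT in 11, TATAAA in 6, TGANTCA in 1 (Col6a1) and the interferon element in 1 (Fbn1). A match describes the letters of the window and says nothing about binding.

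Col4a1 and Col4a2, the 2 chains of the main type IV collagen, are shown because they lie head to head on chromosome 8 and had similar ratios of UMIs across libraries in endothelial cells. Their windows, chr8:11312777-11313076 on the minus strand and chr8:11312555-11312854 on the plus strand, share 78 bases, which are in capitals and read as reverse complements of each other.
Col4a1 window: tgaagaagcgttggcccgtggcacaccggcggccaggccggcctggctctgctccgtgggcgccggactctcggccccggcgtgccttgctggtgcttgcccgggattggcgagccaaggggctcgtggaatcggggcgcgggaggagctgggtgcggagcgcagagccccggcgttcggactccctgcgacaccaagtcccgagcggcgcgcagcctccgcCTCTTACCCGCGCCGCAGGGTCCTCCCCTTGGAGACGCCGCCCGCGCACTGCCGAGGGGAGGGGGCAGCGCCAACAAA
Col4a2 window: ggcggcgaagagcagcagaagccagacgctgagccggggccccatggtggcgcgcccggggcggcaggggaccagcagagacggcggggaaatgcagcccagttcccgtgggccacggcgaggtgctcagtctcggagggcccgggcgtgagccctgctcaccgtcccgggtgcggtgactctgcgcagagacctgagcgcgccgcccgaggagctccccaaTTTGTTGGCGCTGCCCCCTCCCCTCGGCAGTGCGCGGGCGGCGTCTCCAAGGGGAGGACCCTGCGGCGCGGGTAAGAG
Endothelial cells held 1.46, 1.5 and 1.53 Col4a1 UMIs per Col4a2 UMI in allografts 1, 2 and 3 and 1.6 in the isograft. Fibroblasts held 1.47, 1.72 and 1.35 in the allografts and 1.44 in the isograft. Joined pericytes and smooth muscle cells, with few cells, held 1.97, 1.31 and 1.78 in the allografts and 1.46 in the isograft, a wider spread. For the chains of type I collagen, fibroblasts held 0.707, 0.804 and 1.14 Col1a1 UMIs per Col1a2 UMI in allografts 1, 2 and 3 and 1.09 in the isograft.

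Each library's leukocytes gave the background for the matrix genes. Col1a1, the first chain of type I collagen, had 5.19, 18.8 and 328 CPM in leukocytes of allografts 1, 2 and 3 and 185 CPM in isograft leukocytes. It was low in allografts 1 and 2 and high in allograft 3 and the isograft, the 2 libraries with many fibroblasts. In T and NK cells it had 5.26, 14.1 and 167 CPM in the allografts and 419 CPM in the isograft. Mmp14, a membrane-bound matrix metalloproteinase, did not follow this pattern and had 132, 121 and 65.4 CPM in myeloid cells of the allografts and 33.7 CPM in those of the isograft, against 4.93 to 5.71 CPM in allograft T and NK cells. A member was read as above background in a class where it exceeded 2 times the leukocyte level in every library. In fibroblasts all 42 members did so; their median was 241, 97.6 and 15.4 times the leukocyte level in allografts 1, 2 and 3 and 28.8 times in the isograft, and the lowest in any library was Mmp14 in allograft 1, at 2.23 times. In endothelial cells 8 members did so: Col4a1, Col4a2, Col15a1, Col18a1, Sparc, Fbn1, Eln and Ccn2. Another 22, among them Col1a1, Col1a2, Col3a1, Postn, Dcn and Lox, stayed at or below 2 times in every library.

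**Figure D1:**
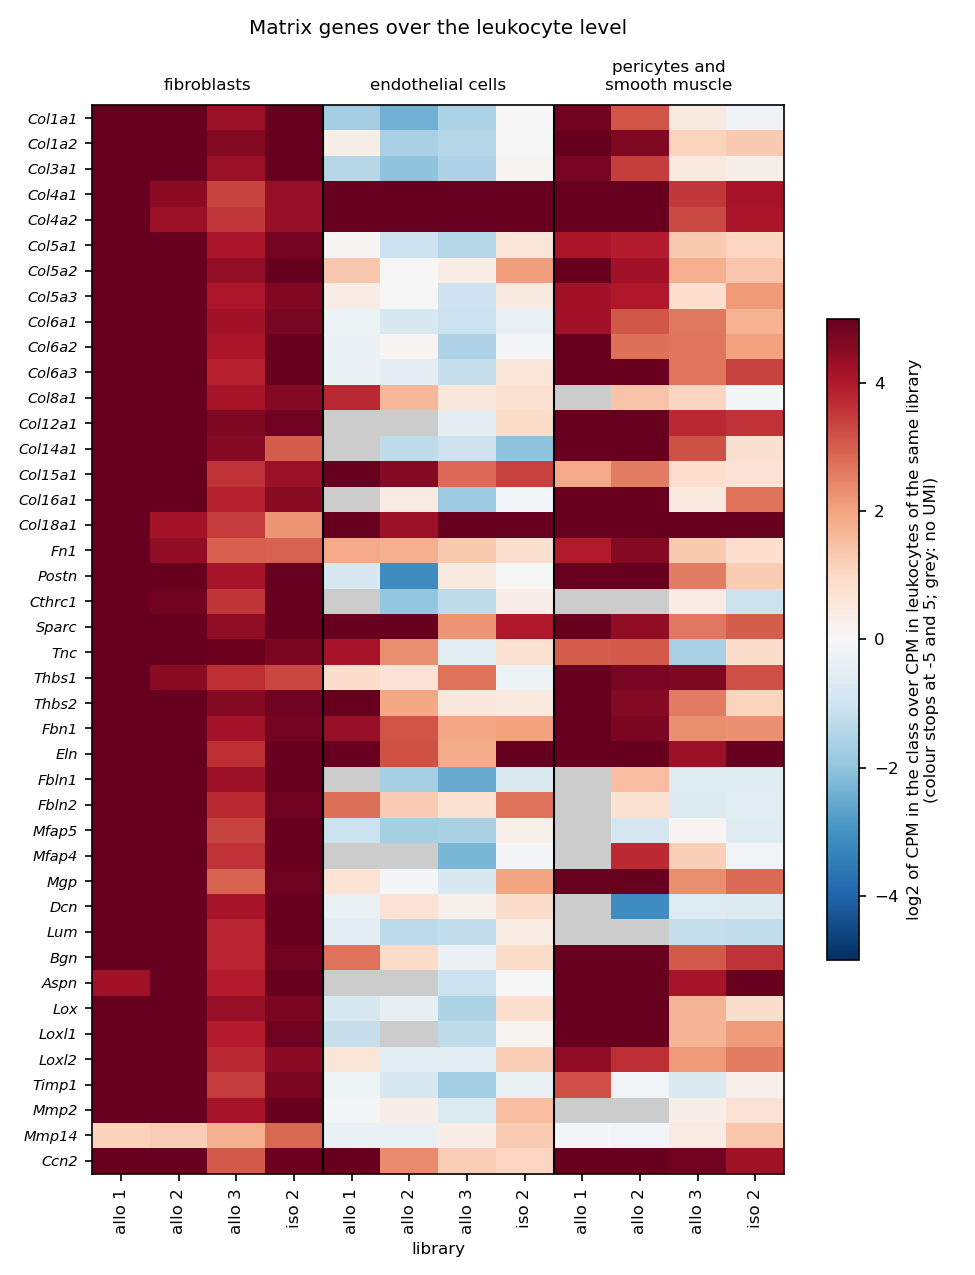
Heat map of the 42 matrix genes (rows) in fibroblasts, endothelial cells and joined pericytes and smooth muscle cells (column blocks, each with allografts 1 to 3 and then the isograft); colour is the log2 of CPM in the class over CPM in leukocytes of the same library, stopping at -5 and 5, with grey for no UMI. All 42 rows are above 2 times the leukocyte level in every fibroblast column, and 8 are so in every endothelial column.

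Classes were ranked with pericytes and smooth muscle joined. In the isograft 38 members had their highest level in fibroblasts, Col4a1, Col4a2 and Eln in endothelial cells, and Col18a1 in joined pericytes and smooth muscle. Taken apart from pericytes, isograft smooth muscle held more Eln (232 CPM) than isograft endothelial cells (206 CPM). In the 3 allografts fibroblasts were highest for 34, 34 and 35 members. Endothelial cells were highest for Col4a1 and Col4a2 in every allograft, and pericytes and smooth muscle for Aspn, Ccn2, Col18a1, Eln and Thbs1 in every allograft. A 3′ UMI counts a transcript once whatever its length, so CPM levels of different genes are not scaled by length. Other differences in capture or counting between genes were not tested. The 42 members together took 4.72%, 5.14% and 6.26% of fibroblast UMIs in allografts 1, 2 and 3 and 8.56% in the isograft. In endothelial cells they took 0.675%, 0.619% and 0.697% in the allografts and 1.30% in the isograft. In leukocytes they took 0.036%, 0.064% and 0.405% in the allografts and 0.299% in the isograft.

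Fibroblasts of allografts differed from those of the isograft in 3 of the 42 members by edgeR's quasi-likelihood test with Benjamini-Hochberg adjustment over 14451 genes. Ccn2 and Mfap5 were lower in the allografts and Col18a1 was higher. Over all genes 0.374% were called lower and 1.53% higher. Another 39 members did not pass. DESeq2 called 7 members (Col8a1, Col15a1, Col18a1, Postn, Mfap5, Mgp and Ccn2), beside 2.94% of genes. The median log2 change of the members was -0.79 and that of all genes tested -0.01. The fit compares 3 libraries with 1, so the isograft is assumed to vary like the allografts, and 2 residual degrees of freedom remain. All 3 allografts lay below the isograft for 29 members and above it for 2, Col5a3 and Col18a1, while the groups overlapped for 11. Among all genes with at least 10 UMIs, 31.0% had all 3 allografts below the isograft and 19.1% had all 3 above.

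**Figure D2:**
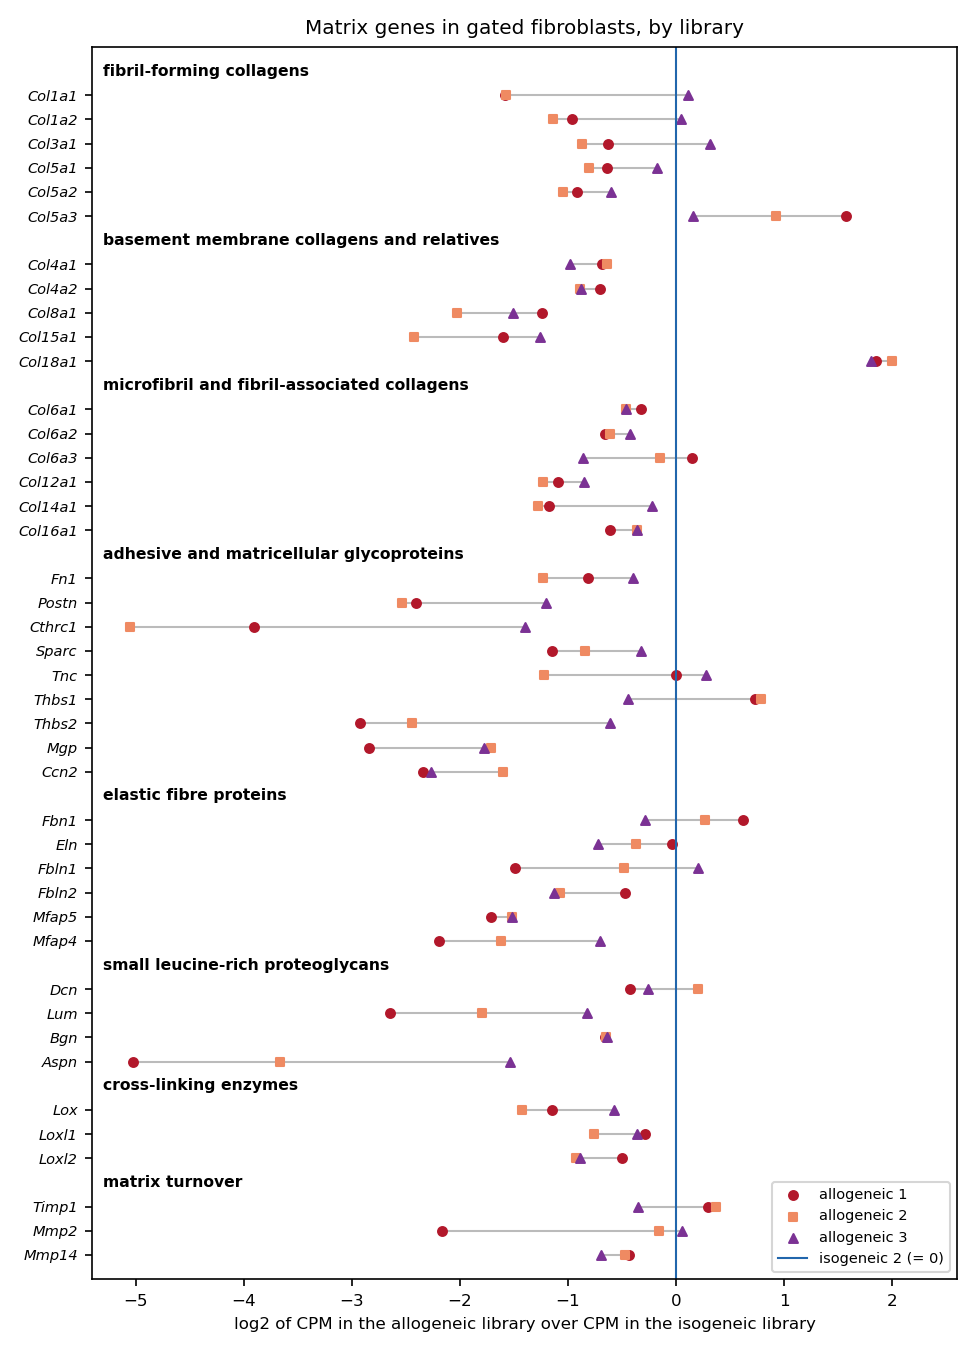
For each of the 42 matrix genes, grouped by role, the log2 of fibroblast CPM in allografts 1 (circles), 2 (squares) and 3 (triangles) over CPM in the isograft (vertical line at 0); grey lines join the 3 allografts. Col18a1 lies right of the line in all 3 allografts, and Cthrc1 and Aspn spread most widely, with allograft 3 nearest to the isograft.

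Ccn2, a matricellular protein induced by TGF-beta and by YAP and TEAD (gene at chr10:24595442-24598683 in GENCODE M21 on mm10), had 311, 519 and 327 CPM in allograft fibroblasts and 1577 CPM in isograft fibroblasts. All 3 allografts were low, at 386 ± 116 CPM (SD, n = 3), and did not overlap the isograft. The log2 change was -2.09 (SE 0.37, edgeR adjusted p = 0.0265). Mfap5, a microfibril glycoprotein (chr6:122505845-122529290), had 1006, 1150 and 1155 CPM in allograft fibroblasts and 3298 CPM in isograft fibroblasts. The allografts lay close together, at 1104 ± 84.4 CPM (SD, n = 3), and all below the isograft (log2 change -1.63, SE 0.31, edgeR adjusted p = 0.0372). Col18a1 (chr10:77052178-77166548) had 45.4, 50.04 and 43.8 CPM in allograft fibroblasts and 12.6 CPM in isograft fibroblasts. All 3 allografts were high, at 46.4 ± 3.26 CPM (SD, n = 3), with a log2 change of 1.83 (SE 0.36, edgeR adjusted p = 0.041). Its leukocyte level was lower in every library: and fibroblasts held 31.5, 17.7 and 11.4 times as much in the allografts and 4.62 times in the isograft. With free RNA subtracted, none of the 3 passed by edgeR, with log2 changes of -2.11 for Ccn2, -1.65 for Mfap5 and 1.91 for Col18a1 (adjusted p = 0.0694 for Ccn2, 0.0729 for Mfap5 and 0.104 for Col18a1). Mfap5 also missed the threshold without allograft 1 (adjusted p = 0.0644) and without allograft 2 (0.143), and Col18a1 without allograft 2 (0.0585); the edgeR adjusted p of Ccn2 stayed under the threshold without any single allograft.

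**Figure D3:**
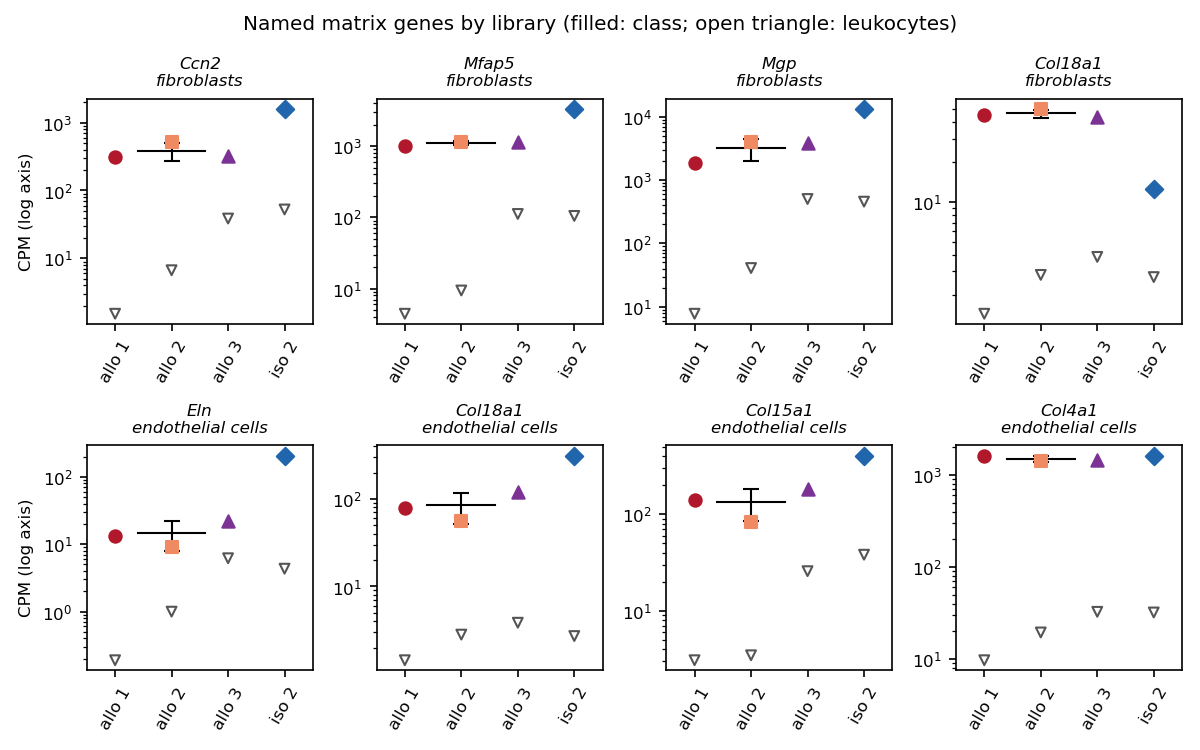
CPM by library (log axes) of Ccn2, Mfap5, Mgp and Col18a1 in fibroblasts (top) and Eln, Col18a1, Col15a1 and Col4a1 in endothelial cells (bottom), with the mean and SD of the 3 allografts as a horizontal bar with whiskers and the leukocyte level of each library as an open triangle. Col18a1 is higher in allografts than in the isograft in fibroblasts and lower in endothelial cells, and Col4a1 in endothelial cells is between 1404 and 1623 CPM in every library.

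Most of the other adhesive and matricellular members were lowest in allografts 1 and 2. Mgp, an inhibitor of calcification and one of the 5 most abundant members in fibroblasts, had 1838, 4013 and 3855 CPM in allograft fibroblasts and 13166 CPM in isograft fibroblasts. All 3 allografts were lower, yet the edgeR test did not pass (-2.06, SE 0.46, adjusted p = 0.0713), while DESeq2 gave an adjusted p of 0.00559 and the edgeR test passed without allograft 3 (-2.25, adjusted p = 7.3e-15). Postn (periostin), a mark of activated cardiac fibroblasts, had 220, 201 and 507 CPM in allografts 1, 2 and 3 and 1164 CPM in the isograft. Cthrc1, a secreted protein of activated fibroblasts, had 64.7, 29.3 and 368 CPM in the allografts and 971 CPM in the isograft. Allograft 3 lay between the other allografts and the isograft for both. Postn (-1.93, SE 0.51, edgeR adjusted p = 0.143) and Cthrc1 (-2.62, SE 0.98, edgeR adjusted p = 0.342) did not pass with all libraries. Without allograft 3 both passed, at -2.57 for Postn and -4.51 for Cthrc1. Allograft 3 was the allograft nearest the isograft for both, so leaving it out narrows the spread among allografts. Passing after that choice is no separate support for a change. The same limit holds for other members given here where allograft 3 lay nearest the isograft. Each fit without it leaves 1 residual degree of freedom. Thbs2, a thrombospondin, had 20.4, 28.5 and 101.7 CPM in the allografts and 155 CPM in the isograft (-1.53, SE 0.69, edgeR adjusted p = 0.502). Its relative Thbs1, which can activate latent TGF-beta, had 825, 858 and 365 CPM in the allografts and 496 CPM in the isograft, so the groups overlapped. Thbs2 passed without allograft 3 (-2.74, edgeR adjusted p = 1.08e-13) and Thbs1 did not. Fn1 (fibronectin) had 563, 423 and 754 CPM in the allografts and 992 CPM in the isograft. Tnc (tenascin-C) had 501, 216 and 610 CPM in the allografts and 502 CPM in the isograft. Sparc, a collagen-binding glycoprotein, had 4801, 5942 and 8484 CPM in the allografts and 10646 CPM in the isograft. Fn1 (-1.12, adjusted p = 0.00125) and Sparc (-1.08, adjusted p = 0.000144) passed by edgeR without allograft 3 and Tnc did not. Of the 9 members of this group, 1 passed with all libraries and 7 passed, all lower, without allograft 3, a setting that called 8.37% of all genes lower and 7.6% higher.

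The main fibril-forming collagens of allograft 3 were near the isograft's level. Col1a1 had 2047, 2056 and 6610 CPM in allografts 1, 2 and 3 and 6130 CPM in the isograft. Its partner chain Col1a2 had 2896, 2557 and 5822 CPM in the allografts and 5626 CPM in the isograft. Col3a1, the chain of type III collagen, had 5474, 4626 and 10561 CPM in the allografts and 8479 CPM in the isograft. For all 3 genes allografts 1 and 2 were below the isograft and allograft 3 above it, so the groups overlapped (edgeR adjusted p = 0.808 for Col1a1, 0.805 for Col1a2 and 0.92 for Col3a1). Of the chains of type V collagen, which sets fibril width, Col5a1 had 372, 331 and 512 CPM in the allografts and 579 CPM in the isograft. Col5a2 had 677, 621 and 843 CPM in the allografts and 1280 CPM in the isograft. Col5a3 differed from both, with 324, 208 and 122 CPM in the allografts and 109 CPM in the isograft (log2 change 0.90, SE 0.48, edgeR adjusted p = 0.603). None of the 6 fibrillar members passed with all libraries. Without allograft 3, Col5a3 was called higher (1.17), beside 7.6% of all genes, and the other 5 lower (-1.68 for Col1a1 to -0.82 for Col5a1), beside 8.37% of all genes.

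Among the basement membrane collagens and their relatives, Col8a1 and Col15a1 lay below the isograft in all 3 allografts. Col8a1, a short-chain collagen of vessel walls and injured heart, had 398, 230 and 329 CPM in allograft fibroblasts and 939 CPM in isograft fibroblasts (-1.62, SE 0.34, edgeR adjusted p = 0.0588). Col15a1, which lies between basement membranes and fibrils, had 248, 141 and 314 CPM in the allografts and 754 CPM in the isograft (-1.73, SE 0.42, edgeR adjusted p = 0.106). DESeq2 called both, with adjusted p of 0.00423 for Col8a1 and 0.0268 for Col15a1. Without allograft 3 both passed by edgeR, at -1.70 (adjusted p = 3.87e-07) for Col8a1 and -2.08 (adjusted p = 9.64e-10) for Col15a1. Fibroblast Col4a1 had 413, 427 and 337 CPM in the allografts and 663 CPM in the isograft, and Col4a2 had 281, 248 and 249 CPM in the allografts and 459 CPM in the isograft. Neither passed in fibroblasts (edgeR adjusted p = 0.346 for Col4a1 and 0.279 for Col4a2). Without allograft 3 Col4a2 passed (-0.90, adjusted p = 0.0196) and Col4a1 did not (adjusted p = 0.0532).

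The microfibril and fibril-associated collagens had log2 changes between -1.08 and -0.31 and no call among 6 with all libraries. Col6a1, a chain of the beaded microfibrils of type VI collagen, had 496, 450 and 450 CPM in the allografts and 620 CPM in the isograft. Col6a2 had 286, 294 and 336 CPM in the allografts and 450 CPM in the isograft, and Col6a3 had 494, 400 and 245 CPM in the allografts and 445 CPM in the isograft. Col12a1, which sits on fibril surfaces, had 53.3, 48.3 and 62.8 CPM in the allografts and 113 CPM in the isograft. Col14a1, which does so too, had 135, 126 and 262 CPM in the allografts and 305 CPM in the isograft. Col16a1 had 56.7, 67.3 and 67.6 CPM in the allografts and 86.7 CPM in the isograft. Without allograft 3, 2 of the 6 were called lower by edgeR, Col12a1 (-1.26, adjusted p = 0.000476) and Col14a1 (-1.33, adjusted p = 0.000227).

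Of the elastic fibre proteins only Mfap5 passed in fibroblasts with all libraries. Mfap4, another microfibril-associated protein, had 115, 171 and 322 CPM in the allografts and 524 CPM in the isograft (-1.38, SE 0.52, edgeR adjusted p = 0.351). Fbn1 (fibrillin-1), the backbone of microfibrils, had 1027, 808 and 548 CPM in the allografts and 669 CPM in the isograft. Eln (elastin) had 128, 101.8 and 79.9 CPM in the allografts and 132 CPM in the isograft. The fibulins, which link elastin to microfibrils, differed: Fbln1 had 123, 248 and 398 CPM in the allografts and 345 CPM in the isograft, and Fbln2 had 668, 439 and 423 CPM in the allografts and 925 CPM in the isograft. Without allograft 3, 4 of the 6 elastic fibre proteins were called lower by edgeR: Mfap5 (-1.71), Mfap4 (-1.96), Fbln1 (-0.97) and Fbln2 (-0.85).

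The small leucine-rich proteoglycans, which coat fibrils and bind growth factors, had no call among 4 with all libraries and 3 without allograft 3. Aspn (asporin) had 9.08, 23.3 and 101.8 CPM in allograft fibroblasts and 295 CPM in isograft fibroblasts. The allografts were low and spread over more than a log2 unit (log2 change -2.58, SE 0.84, edgeR adjusted p = 0.255), and the value of allograft 1 rests on 8 UMIs. Lum (lumican) had 287, 519 and 1020 CPM in the allografts and 1800.2 CPM in the isograft (-1.58, SE 0.59, edgeR adjusted p = 0.34). Bgn (biglycan) had 2402, 2419 and 2432 CPM in the allografts, a spread of 15.1 CPM (SD, n = 3), and 3778 CPM in the isograft. Dcn (decorin) overlapped, with 3845, 5958 and 4305 CPM in the allografts and 5160.5 CPM in the isograft. The 3 called lower by edgeR without allograft 3 were Aspn (-4.22, adjusted p = 1.41e-23), Lum (-2.24, adjusted p = 6.24e-12) and Bgn (-0.75, adjusted p = 0.0267).

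Cross-linking and turnover genes gave no call with all libraries. Lox, the enzyme that starts collagen and elastin cross-links, had 196, 162 and 294 CPM in allograft fibroblasts and 436 CPM in isograft fibroblasts. Of its relatives, Loxl1 had 331, 239 and 314 CPM in the allografts and 404 CPM in the isograft. Loxl2 had 163, 122 and 125 CPM in the allografts and 231 CPM in the isograft. Without allograft 3, Lox (-1.39, adjusted p = 8.5e-05) and Loxl2 (-0.81, adjusted p = 0.0475) passed by edgeR and Loxl1 did not. Timp1, an inhibitor of metalloproteinases, had the highest level of the members in allografts 1 and 2, while Col3a1 was highest in allograft 3 and Mgp in the isograft. Timp1 had 12881, 13572 and 8213 CPM in the allografts and 10492 CPM in the isograft, and the groups overlapped (log2 change 0.07, SE 0.38, edgeR adjusted p = 0.985). Mmp2, a gelatinase, had 40.8, 164 and 191 CPM in the allografts and 183 CPM in the isograft. Mmp14, which activates Mmp2, had 185, 180 and 154 CPM in the allografts and 250.1 CPM in the isograft. Of these 3 only Mmp2 was called, lower, without allograft 3 (-0.89, edgeR adjusted p = 0.0404).

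Leaving out allograft 3 raised the members called in fibroblasts to 29, with 27 lower and 2 higher (Col5a3 and Col18a1), beside 8.37% lower and 7.6% higher among the 9806 genes then tested by edgeR. The 3 members called with all libraries were among the 29. That comparison holds 2 libraries against 1 and 104 allograft fibroblasts, and 1 residual degree of freedom. Without allograft 1, 6 members passed (Col8a1, Col15a1, Col18a1, Mgp, Aspn and Ccn2), beside 3.55% of genes. Without allograft 2, 3 passed (Cthrc1, Aspn and Ccn2), beside 2.7% of genes.

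The share of fibroblasts with a UMI was compared after thinning each cell to 2000 UMIs, since fibroblast depth differed between libraries (median 24776, 15198.5 and 13008 UMIs in the allografts and 9622 in the isograft). Thinning left out 0, 2 and 54 shallower fibroblasts in the allografts and 78 in the isograft. Intervals are 95% Wilson intervals, which cover counting error only. Ccn2 was found in 41.2% (26.4 to 57.8), 36.8% (26.3 to 48.6) and 30.2% (27.4 to 33.2) of allograft fibroblasts and 74.7% (73.4 to 75.9) of isograft fibroblasts. Leukocytes, for background, held a Ccn2 UMI in 0.267%, 0.744% and 6.18% of allograft cells and 6.42% of isograft cells. Without thinning the fibroblast shares were 73.5%, 74.3% and 60.7% in the allografts and 91.0% in the isograft. Postn was found in 23.5%, 19.1% and 45.0% of thinned allograft fibroblasts and 72.7% of isograft fibroblasts, and Cthrc1 in 8.82%, 2.94% and 28.7% of allograft fibroblasts and 49.3% of isograft fibroblasts. For both, allograft 3 had a higher share than allograft 2 beyond the counting intervals and a lower one than the isograft. In leukocytes the Cthrc1 share was at most 5.80% in the allografts and 4.35% in the isograft. Col18a1 was found in 5.88% (1.63 to 19.1), 10.3% (5.08 to 19.8) and 8.36% (6.78 to 10.3) of allograft fibroblasts and 2.57% (2.14 to 3.08) of isograft fibroblasts; the interval of allograft 1 overlaps that of the isograft.

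**Figure D4:**
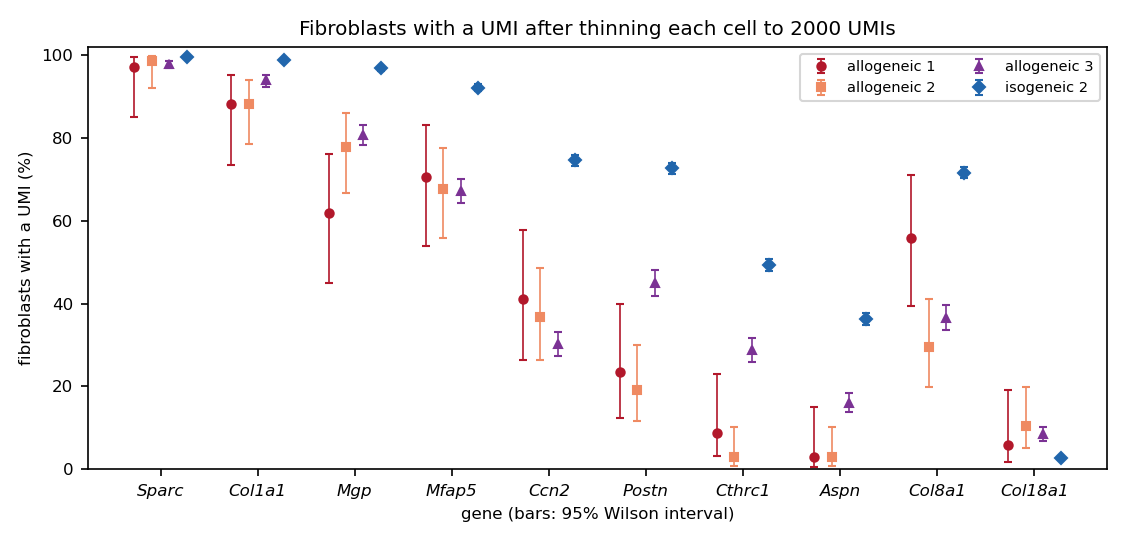
Percent of fibroblasts with at least 1 UMI after thinning each cell to 2000 UMIs, for 10 matrix genes (x axis) in allografts 1 to 3 and the isograft, with 95% Wilson intervals. Postn, Cthrc1 and Aspn are lowest in allografts 1 and 2, higher in allograft 3 and highest in the isograft, while Col18a1 is lowest in the isograft.

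Endothelial cells of allografts differed from those of the isograft in 3 of 42 members, all lower: Eln, Lox and Col18a1. By the same edgeR test 1.45% of 12233 genes were called lower and 2.65% higher. The median log2 change was -2.18 over the members and 0.00 over all genes. All 3 allografts were below the isograft for 35 members, and above it for Thbs1 alone, beside 39.1% of genes below and 25.6% above. Only 8 of the 42 members were above background here in every library. Another 22 stayed at or below 2 times the leukocyte level in every library. The counts and the median thus include members at background and are not read as lower endothelial expression across the members. DESeq2 called 4 members (Col15a1, Col18a1, Eln and Lox), beside 5.66% of genes. The gate admits some signal of other cells: fibroblast markers summed to 26.7, 30.0 and 83.3 CPM in allograft endothelial cells and 215 CPM in isograft endothelial cells, and the part of this in the results was not tested. Col1a1 had 1.57, 3.54 and 111 CPM in allograft endothelial cells and 182 CPM in isograft endothelial cells, which was 0.303, 0.188 and 0.338 times the leukocyte level in the allografts and 0.985 times in the isograft. With free RNA subtracted, 27 members remained testable in endothelial cells and none passed by edgeR. The log2 changes by edgeR were then -4.22 for Eln (adjusted p = 0.0677) and -1.90 for Col18a1 (adjusted p = 0.292). For both genes allografts 2 and 3 lay nearer the leukocyte level than the isograft did, so the subtraction took a larger share from them. These sizes are therefore no separate support for a change. The third called gene, Lox, was at or below 2 times the leukocyte level in every library. Its log2 change became -8.29, from 1, 6 and 11 allograft UMIs before the subtraction, so that size is not read as a change.

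Eln, the core of elastic fibres (chr5:134702593-134747323), had 13.1, 9.0 and 22.4 CPM in allograft endothelial cells and 206 CPM in isograft endothelial cells. All 3 allografts were low, at 14.8 ± 6.87 CPM (SD, n = 3), with a log2 change of -3.78 (SE 0.39, edgeR adjusted p = 0.0061). Its level was 69.4, 9.05 and 3.63 times that of leukocytes in the allografts and 47.7 times in the isograft. An Eln UMI was found in 2.14%, 1.58% and 4.57% of thinned allograft endothelial cells and 15.8% of isograft endothelial cells, and in 0.059%, 0.161% and 1.67% of allograft leukocytes and 0.807% of isograft leukocytes. Endothelial Col18a1 had 78.6, 55.3 and 121 CPM in the allografts and 312 CPM in the isograft. The allografts were all lower, at 85.0 ± 33.3 CPM (SD, n = 3; log2 change -1.84, SE 0.37, edgeR adjusted p = 0.0488). This call was lost under several settings: the edgeR adjusted p was 0.0516 with DESeq2's size factors, 0.0535 with library totals, 0.0813 without allograft 1 and 0.076 with Pcolce, Dpt, Serpinf1 and Clec3b left out of the gate. Lox had 0.524, 1.64 and 4.93 CPM in the allografts, from 1, 6 and 11 UMIs, and 29.8 CPM in the isograft (-3.60, SE 0.62, edgeR adjusted p = 0.0334). It was at 0.57, 0.753 and 0.346 times the leukocyte level in the allografts and 1.80 times in the isograft, so it was not above background by the limit of 2 times, and it missed the edgeR threshold with Scrublet doublets left out (adjusted p = 0.0554). With Pcolce, Dpt, Serpinf1 and Clec3b left out of the gate its log2 change was -2.60 (edgeR adjusted p = 0.187).

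The type IV chains had similar endothelial levels in every library. Col4a1 had 1623, 1404 and 1465 CPM in allograft endothelial cells and 1622 CPM in isograft endothelial cells (log2 change -0.06, SE 0.21, edgeR adjusted p = 0.902). Col4a2 had 1110.1, 935 and 957 CPM in the allografts and 1015 CPM in the isograft (log2 change 0.03, SE 0.23, edgeR adjusted p = 0.952), a direction that turned to -0.023 with library totals and to -0.048 without allograft 1. Neither test shows that the levels are equal. Col15a1, among the 5 most abundant members in endothelial cells, had 140, 83.7 and 182 CPM in the allografts and 406 CPM in the isograft. All 3 allografts were lower, and the test did not pass with edgeR (-1.54, SE 0.37, adjusted p = 0.0776) but passed with DESeq2 (adjusted p = 0.00746). Sparc, the most abundant, had 3252, 3108 and 1838 CPM in the allografts and 4594 CPM in the isograft (-0.69, SE 0.34, edgeR adjusted p = 0.313). Mgp had 12.6, 39.5 and 300 CPM in the allografts and 1795 CPM in the isograft (-3.91, SE 1.22, edgeR adjusted p = 0.14), at 0.597 to 1.62 times the leukocyte level in the allografts and 3.93 times in the isograft. Thbs1 was the member above the isograft in all 3 allografts, with 45.6, 61.9 and 185 CPM in the allografts and 41.7 CPM in the isograft (log2 change 1.26, SE 0.76, edgeR adjusted p = 0.4). Endothelial Thbs1 was at 1.86, 1.64 and 6.53 times the leukocyte level in the allografts and 0.839 times in the isograft. It thus exceeded the limit of 2 times in allograft 3 alone. Without allograft 3, 36 members were called lower and 1 higher (Thbs1) in endothelial cells, beside 19.8% and 18.1% of 12494 genes by edgeR. Those called lower include, except for Col5a3, all of the 22 members at or below 2 times the leukocyte level in every library. Of these, Col12a1, Mfap4 and Aspn had no UMI in allografts 1 and 2. Calls of members at background are not read as lower endothelial expression. Without allograft 2, 7 members passed (Col5a1, Col8a1, Col18a1, Eln, Fbln2, Lox and Loxl2), beside 4.57% of genes. Without allograft 1, 2 passed (Eln and Lox), beside 2.92% of genes.

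The allogeneic effect differed between fibroblasts and endothelial cells for Col18a1 and Eln. In 1 edgeR fit over both classes with the library as a block, 0.17% of 13544 genes passed. For Col18a1 the effect in fibroblasts minus that in endothelial cells was 3.58 on the log2 scale (SE 0.45, adjusted p = 0.0129). For Eln it was 3.25 (SE 0.50, adjusted p = 0.0368), beside 79.9 to 128 CPM in allograft fibroblasts and 132 CPM in isograft fibroblasts. The other 40 members did not pass. Leaving out an allograft left Col18a1 past the threshold each time (adjusted p = 0.0205 without allograft 1, 1.43e-06 without 2 and 1.21e-26 without 3). Eln missed it without allograft 1 (adjusted p = 0.0593). The members that passed numbered 1 without allograft 1 (beside 0.205% of genes), 3 without allograft 2 (1.26%) and 32 without allograft 3 (9.09%). Many of the 32, among them Col1a1, Col3a1 and Dcn, were at or below 2 times the leukocyte level in endothelial cells in every library. Calls of such members are not read as a different response of the 2 classes.

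Pericytes and smooth muscle cells were too few for a test apart, with 5 of each in allograft 1. In allograft pericytes 3 counts equal 79.9 to 83.6 CPM, so levels of a few UMIs cannot be set against background there. Pericyte Mgp had 948, 932 and 1099 CPM in the allografts, from 34 to 41 UMIs a library, and 5190.0 CPM in the isograft. Pericyte Sparc had 1673, 2582 and 5575 CPM in the allografts and 3478 CPM in the isograft, so the groups overlapped. Smooth muscle Col18a1 had 417, 742 and 514 CPM in the allografts and 409 CPM in the isograft. Smooth muscle Eln had 246, 390.0 and 159 CPM in the allografts and 232 CPM in the isograft, and its groups overlapped. Smooth muscle Lox had 171, 151 and 62.0 CPM in the allografts and 33.7 CPM in the isograft, from 9, 24, 7 and 26 UMIs.

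Joined after these cell numbers were seen, the pericytes and smooth muscle cells gave 10, 35 and 34 cells in the allografts and 224 in the isograft. None of the 31 members tested passed by edgeR, beside 3.66% of 4178 genes, and none passed by DESeq2, which called 3.09% of genes. Mgp had 576, 1837 and 2530 CPM in the allografts and 3265 CPM in the isograft (-1.05, SE 0.58, adjusted p = 0.516). Sparc had 1625, 1613 and 2463 CPM in the allografts and 2358 CPM in the isograft, and was above Mgp in allograft 1. Bgn was even across libraries, with 1569, 1460 and 1425 CPM in the allografts and 1634 CPM in the isograft. Thbs1 had 1083, 1002 and 712 CPM in the allografts and 462 CPM in the isograft (log2 change 0.91, SE 0.48, edgeR adjusted p = 0.497). Ccn2, lower in allograft fibroblasts, had 576, 1272 and 1125 CPM in the allografts and 979 CPM in the isograft here, with overlapping groups. Lox had 113, 122 and 46.6 CPM in the allografts and 30.8 CPM in the isograft (1.49, SE 0.55, edgeR adjusted p = 0.225). Without allograft 3, Lox passed higher, beside 6.45% of genes, and Mgp, Dcn, Mfap5 and Aspn lower, beside 5.55%. Dcn and Mfap5 were among 6 members at or below 2 times the leukocyte level in every library in this joined class, so their calls are at background. Mgp and Aspn were among 22 members above that limit in every library.

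Few other genes of the matrix pathway passed in fibroblasts with all libraries. Of 24 genes of collagen synthesis and secretion none passed (median log2 change -0.47), and none of 18 further basement membrane genes (median -0.07). Of 20 genes tested from the list of proteases and inhibitors, 1 rose, Tgm2 (2.55, SE 0.37, edgeR adjusted p = 0.0104). It had 210, 192 and 152 CPM in allograft fibroblasts and 30.0 CPM in isograft fibroblasts. Tgm2 is a transglutaminase that cross-links matrix, so no protease or protease inhibitor of the list passed. Of 20 matrix receptors, 1 fell, the integrin subunit Itgb5 (-1.73, SE 0.32, edgeR adjusted p = 0.0303). Of 50 other matrix proteins, 1 fell, Ccn4, a relative of Ccn2 (-1.71, SE 0.30, edgeR adjusted p = 0.0262). Of 14 contractile myofibroblast genes, 2 fell. Tagln (transgelin) had 171, 234 and 241 CPM in allograft fibroblasts and 1442 CPM in isograft fibroblasts (-2.79, SE 0.34, edgeR adjusted p = 0.00429), and Acta2 (smooth muscle actin) 403, 395 and 267 CPM in the allografts and 1043 CPM in the isograft (-1.63, SE 0.32, edgeR adjusted p = 0.0422). None of 17 TGF-beta genes passed (median -0.32), none of 13 YAP and TEAD genes (median 0.07) and none of 22 immediate-early and heat shock genes (median -0.72), which respond to tissue digestion. Without allograft 3, where 27 members were called lower, 14 of these 22 genes were lower too (median -1.15), and their part in the members' result was not tested. That setting also called 15 of 43 other matrix proteins lower and 4 higher, 6 of 17 proteases and inhibitors higher and 6 lower, 5 of 16 basement membrane genes lower and 5 of 14 contractile genes lower. It called 4 of 24 collagen synthesis genes lower, 4 of 17 TGF-beta genes lower, 5 of 16 matrix receptors higher and 2 lower, and 1 of 11 YAP and TEAD genes higher and 2 lower, beside the 8.37% of all genes lower and 7.6% higher. Interferon response genes behaved otherwise: 18 of 22 rose (median 4.49), among them Gbp2, a guanylate-binding protein, with 1452, 1520 and 1436 CPM in allograft fibroblasts and 10.4 CPM in isograft fibroblasts. Cxcl9, a chemokine induced by interferon gamma, had 2434, 3739 and 5229 CPM in the allografts and 0.657 CPM in the isograft, and Gbp4 had 651, 569 and 405 CPM in the allografts and 1.01 CPM in the isograft.

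In endothelial cells 21 of 22 interferon response genes rose (median 3.94), led by Cxcl9 (8.70), Gbp2 (7.11) and Igtp (5.77). Of 17 genes from the list of proteases and inhibitors, 2 rose. Timp3, a matrix-bound metalloproteinase inhibitor (2.46, SE 0.25, edgeR adjusted p = 0.0061), had 1682, 1801 and 1994 CPM in the allografts and 345 CPM in the isograft. The other was the transglutaminase Tgm2 (1.44, SE 0.24, edgeR adjusted p = 0.029). Of 14 basement membrane genes, 3 fell. Sparcl1, a relative of Sparc, had 89.1, 54.8 and 191 CPM in the allografts and 1053 CPM in the isograft (-3.20, SE 0.54, edgeR adjusted p = 0.03); the others were Npnt (-4.27) and Lama2 (-3.37), which were under 1.5 CPM in every allograft. Of 16 matrix receptors, the collagen receptor subunit Itga1 (1.84) and the hyaluronan receptor Cd44 (1.44) rose and the syndecan Sdc1 (-3.31) fell. Fbln5, which helps assemble elastic fibres, had 20.4, 10.9 and 17.5 CPM in the allografts and 142 CPM in the isograft (-3.11, SE 0.31, edgeR adjusted p = 0.0061). It was the 1 call among 37 other matrix proteins. Nrep was the 1 call, lower, among 17 TGF-beta genes (-2.27, SE 0.41, edgeR adjusted p = 0.0371). The genes of these lists were not set against their leukocyte level. With free RNA subtracted, edgeR called 29 genes higher and 0 lower in endothelial cells, so none of these falls passed then. None of 23 collagen synthesis genes, 14 contractile genes, 22 immediate-early and heat shock genes or 13 YAP and TEAD genes passed. Without allograft 3, 19.8% of all genes were called lower and 18.1% higher. In that setting 28 of 35 other matrix proteins were lower and 4 higher, and 8 of 17 proteases and inhibitors lower and 3 higher. Of 14 basement membrane genes 8 were lower and 2 higher, and of 23 collagen synthesis genes 9 lower and 2 higher. Of 22 immediate-early and heat shock genes 10 were lower and 3 higher. Of 16 matrix receptors 5 were lower and 7 higher, and of 13 YAP and TEAD genes 1 lower and 6 higher. Contractile genes had 4 of 14 lower and 4 higher, and TGF-beta genes 7 of 17 lower and 0 higher. All 22 interferon response genes were higher. In joined pericytes and smooth muscle cells all 22 interferon genes rose, with Gbp4 at 1117, 651 and 366 CPM in the allografts and no UMI in the isograft. The 1 other call was the syndecan Sdc4, higher at 2.33 (SE 0.63, edgeR adjusted p = 0.0499) among 14 matrix receptors, and none passed of 14 collagen synthesis genes, 8 proteases and inhibitors, 10 basement membrane genes, 14 contractile genes, 16 other matrix proteins, 12 TGF-beta genes, 21 immediate-early and heat shock genes and 8 YAP and TEAD genes. Without allograft 3, 13 of the 21 immediate-early and heat shock genes were lower there, beside 5.55% of all genes.

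Exons of 14 members overlap exons of a gene on the opposite strand in GENCODE M21, among them Ccn2, Eln, Lox, Thbs1, Col4a1 and Col4a2. No source used here says whether the counting took strand into account, so whether reads of such pairs were told apart is not known here. Col4a1 and Col4a2 overlap each other only at their start ends, between chr8:11312805 and chr8:11312826, away from the 3′ ends near which the reads lie.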

How the data were processed

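Counts are the authors' deposited UMIs, whole numbers per gene and barcode, not normalized. Cell Ranger 3.1.0 and the mm10 build are listed in the submitters' processing notes, while per the file headers version 6.1.0 wrote the matrices. Library making followed a 3′ droplet kit, per the labels' protocols; strand use and the filter on barcodes are not given in the sources used here. The members and gene lists were chosen with earlier results of these data known.

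Barcodes with under 500 UMIs, under 300 genes or over 20% mitochondrial UMIs were left out, which kept 4983, 8215 and 6311 allograft cells and 11386 isograft cells. A cell joined a stromal class with at least 3 of its markers detected, at least 10 marker UMIs per 10000, under 20 leukocyte marker UMIs per 10000 and no other stromal class at over 0.5 of its share of detected markers; leukocytes needed 20 or more. This gate was set after cell numbers had been seen. Doublets scored by Scrublet (0.8% per 1000 barcodes) were kept, and left out as an alternative. UMIs were summed per library and class, and classes with at least 20 cells in every library were tested with edgeR 4.0.16 (quasi-likelihood F-test, TMM, default filter, Benjamini-Hochberg, threshold 0.05; R 4.3.3), after a test on simulated data; 10 cells sufficed for joined pericytes and smooth muscle. The SE is the absolute log2 change over the square root of F and is approximate. DESeq2 1.42.0 was an alternative. CPM values divide by all UMIs that a library's class holds. Python 3.11.15 and scanpy 1.11.5 were used. All 42 members are accounted for; members that passed and the 5 most abundant of a class are given per library, and up to 3 passing genes of each other list by size of change. The immediate-early and the YAP and TEAD lists were added after results had been seen. Of 34097 gene identifiers, 32403 were in GENCODE M21.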

Additional observations from a re-analysis of the deposited data

Results flagged for a closer look

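Col18a1 drew attention because its allogeneic effect differed between fibroblasts and endothelial cells by a test of that difference (3.58 on the log2 scale, edgeR adjusted p = 0.0129): 43.8 to 50.04 CPM in allograft fibroblasts and 12.6 CPM in isograft fibroblasts, but 55.3 to 121 CPM in allograft endothelial cells and 312 CPM in isograft endothelial cells. Eln did so by the same test (3.25, edgeR adjusted p = 0.0368), with 9.0 to 22.4 CPM in allograft endothelial cells and 206 CPM in isograft endothelial cells. Groups of 3 and 1 libraries are too small for an outlier test.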

How the results depend on the processing

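No paired analysis was possible because the groups share only 1 replicate number. With all libraries 275 genes and 3 members passed in fibroblasts and 501 genes and 3 members in endothelial cells. In fibroblasts DESeq2 called 425 of 14451 genes and 7 members. No filter on low counts gave 1043 of 24559 genes and 13 members, and free RNA taken off 156 of 14190 genes and 0 members. Library totals without TMM, chosen after seeing the data, called 371 of 14451 genes and 7 members. In endothelial cells no filter called 1107 of 20677 genes and 16 members, and free RNA taken off 29 of 11539 genes and 0 members. The gate without Pcolce, Dpt, Serpinf1 and Clec3b called 340 of 12353 genes and 1 member. In joined pericytes and smooth muscle, with 153 genes and 0 members, no filter called 282 genes and free RNA taken off 52.

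Leaving out each allograft in turn gave 425 to 1566 genes and 3 to 29 members in fibroblasts, 367 to 4733 genes and 2 to 37 members in endothelial cells, and 142 to 547 genes and 0 to 5 members in joined pericytes and smooth muscle, the highest each time without allograft 3; the 23 genes with a difference between classes became 29 to 1188. Among the single-gene results tracked across settings, those that reversed, none of them a call, were fibroblast Timp1 (-0.051 to 0.24 with an allograft left out), fibroblast Dcn (-0.37 to 0.009), endothelial Col4a2 (-0.048 to 0.092, and -0.023 with library totals) and Ccn2 in joined pericytes and smooth muscle (-0.26 to 0.21, and 0.034 with library totals). Over all members tested, 3 in fibroblasts, 2 in endothelial cells and 14 in joined pericytes and smooth muscle reversed without an allograft, with DESeq2, with free RNA taken off or with library totals, and none of these passed with all libraries. The cause was not tested. One more or 1 fewer gate marker and a 10% mitochondrial limit changed none of the 31 single-gene results in direction or call. The gate without Pcolce, Dpt, Serpinf1 and Clec3b could not be fitted in fibroblasts (10 cells in a library) or in joined pericytes and smooth muscle (8 cells), and pericytes and smooth muscle apart held 5 cells each in allograft 1. In allograft 1, 3 counts equal 3.40 CPM in fibroblasts and 33.9 CPM in joined pericytes and smooth muscle.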
